A study of Mus musculus with 36 samples.

Results

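Calcium that enters a neuron binds calmodulin, and calmodulin then switches on both a set of protein kinases and a phosphatase. The 10 genes described here code for 6 calmodulin-dependent (CaM) kinases, for 2 catalytic subunits of the phosphatase calcineurin and for 2 of the proteins that bind and restrain calcineurin, the calcipressins. They are the listed genes Camkk1, Camkk2, Camk1g, Camk4, Camk2a, Camk2b, Ppp3ca, Ppp3cb, Rcan1 and Rcan2, and all 10 were found among the 26709 genes of the RNA table, whatever their values. All 10 also passed the filter on low values (a mean of at least 10 normalized counts), which left 16209 genes to test.

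As background, the kinases form a cascade. The CaM kinase kinases CaMKK1 and CaMKK2 phosphorylate the activation loops of CaM kinases I and IV, which carry calcium signals to the cytoskeleton and, for CaM kinase IV, to transcription factors such as CREB in the nucleus. CaMKII is a separate large holoenzyme of α and β subunits that is concentrated at excitatory synapses and is needed for long-term potentiation. Calcineurin opposes kinases at the synapse and dephosphorylates the NFAT transcription factors, and Rcan1 is a textbook NFAT target whose product feeds back on calcineurin.

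The cells were primary cortical neurons of CD-1 mouse embryos (embryonic day 15; the cortices of all embryos were pooled), kept for 7 days in vitro. All groups were first silenced with 100 µM AP-5, which blocks NMDA receptors, and 1 µM TTX, which blocks sodium channels. Stimulated neurons had 2 h of this block and then 10 ng/ml BDNF, the ligand of the receptor TrkB, or 55 mM KCl, which depolarizes the membrane, for 1, 6 or 10 h. Controls were left in both blockers throughout, 3, 8 or 12 h in all. The study's methods do not describe removing the blockers before the stimulus. Each of the 9 groups had 2 RNA-seq and 2 ATAC-seq samples, biological replicates that are named A and B here. Since the tissue was pooled, p-values measure the spread between cultures and not between animals. That spread was estimated for each gene or peak over all groups together. It is thus not the spread of the groups compared alone. Controls of all times, 6 in each assay, were pooled.

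Depth was 8508452 to 36699187 reads per RNA library and 1241829 to 6236439 reads in peaks per ATAC library. The 5 neuron markers were at a summed 39659 to 50967 normalized counts in every library. The culture was not neurons alone. The 5 astrocyte and radial glia markers summed to 15842 to 18334 in controls and to 12186 to 14852 and 12981 to 13697 after 6 and 10 h of KCl, where all 5 were lower, while after 6 h of BDNF they summed to 14989 to 15288 with 4 lower. The 3 markers of cycling progenitors summed to 3463 to 5873 in controls, to 3001 to 3278 and 3162 to 3220 after 6 and 10 h of BDNF (all 3 lower) and to 2451 to 2561 and 2397 to 2659 after 6 and 10 h of KCl (2 lower), and the 3 of inhibitory neurons to 4593 to 5971 in controls and 6093 to 9808 over all stimulated libraries. The 3 excitatory markers summed to 3148 to 3605 in controls, and to 4074 to 4094 and 4254 to 4350 after 6 h of BDNF and KCl (all 3 higher in each). After 1 h of BDNF they summed to 2898 to 2899 (2 higher, 1 lower). At 1 h of KCl and at 10 h of BDNF and KCl they summed to 3010 to 3923 (1, 2 and 2 higher). The 4 oligodendrocyte-lineage markers summed to 3950 to 4381 in controls and 3695 to 4495 over the BDNF libraries. After 1, 6 and 10 h of KCl they summed to 3241 to 3478, 5065 to 5251 and 4799 to 5401. The 4 did not move together. With KCl, 0, 2 and 1 were higher and 2, 2 and 0 lower at 1, 6 and 10 h. With BDNF, 1 was higher at each time and 0, 2 and 1 were lower. In controls the 4 microglial markers summed to 65.1 to 90.1, and the 4 of endothelium and pericytes to 159 to 225. Over all libraries, the lowest of each set were P2ry12 (2.29 to 10.9) and Cldn5 (0 to 6.53), and Pdgfrb was at 129 to 231. The part of these shifts in the results below was not tested, and in bulk RNA fewer cells of a type and less RNA per cell cannot be told apart. The 2 KCl 6 h RNA libraries differed from each other more than any other pair (27.7 times the counting noise as chi-square per degree of freedom, against 2.02 to 7.83), so most 6 h KCl values of the 10 genes are also given without each.

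Several stretches of DNA carry the chromatin results described further on. They were read from RefSeq promoter windows (250 bases before to 50 after a transcript start) or from the genome, both GRCm38.p6, the assembly of the mm10 coordinates in the files. Capitals mark 3 motifs on either strand: the AP-1 motif TGANTCA, the core TGACG of the cAMP response element (CRE; TGACGTCA in full, which contains the core) and the NFAT core GGAAAA. Rcan1 has a far promoter and an internal one for its short transcript, and both are shown on the minus strand because the internal promoter passed the test for accessibility at 1 h, with calls that depend on the controls used, while the far one did not; the 2 were not tested against each other. The Rcan2 promoter window (plus strand) is an internal one and lies in a promoter peak that gained with BDNF, 152 kb into the gene. That peak was chosen after its values were seen, and other Rcan2 windows are not printed. The peaks (plus strand) are the intronic ones with the lowest adjusted p of Camkk1 and Rcan2.
Rcan1 internal promoter, chr16:92400029-92400328: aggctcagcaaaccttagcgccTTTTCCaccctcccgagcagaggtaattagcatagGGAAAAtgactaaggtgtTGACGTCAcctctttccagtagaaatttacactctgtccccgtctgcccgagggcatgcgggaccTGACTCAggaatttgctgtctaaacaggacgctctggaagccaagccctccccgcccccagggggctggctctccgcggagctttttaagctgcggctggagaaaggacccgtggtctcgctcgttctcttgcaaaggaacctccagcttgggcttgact
Rcan1 far promoter, chr16:92466120-92466419: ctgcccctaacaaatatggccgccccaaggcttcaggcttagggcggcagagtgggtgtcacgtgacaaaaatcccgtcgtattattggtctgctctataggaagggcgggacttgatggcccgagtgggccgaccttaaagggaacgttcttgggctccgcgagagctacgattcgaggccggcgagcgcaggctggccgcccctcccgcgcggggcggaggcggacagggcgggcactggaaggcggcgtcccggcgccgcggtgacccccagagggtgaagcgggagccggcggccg
Rcan2 promoter, chr17:43952749-43953048: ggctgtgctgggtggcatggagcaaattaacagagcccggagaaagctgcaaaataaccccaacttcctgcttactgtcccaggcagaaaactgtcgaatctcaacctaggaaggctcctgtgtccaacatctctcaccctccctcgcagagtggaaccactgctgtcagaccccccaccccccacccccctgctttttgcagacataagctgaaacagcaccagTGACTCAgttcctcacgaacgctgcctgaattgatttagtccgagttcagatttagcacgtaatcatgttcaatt
Camkk1 intronic peak, chr11:73023267-73023456: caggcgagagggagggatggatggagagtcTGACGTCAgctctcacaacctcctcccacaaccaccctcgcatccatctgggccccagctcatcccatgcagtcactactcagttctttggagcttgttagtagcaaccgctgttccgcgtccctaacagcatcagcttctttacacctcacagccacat
Rcan2 intronic peak, chr17:44035071-44035269: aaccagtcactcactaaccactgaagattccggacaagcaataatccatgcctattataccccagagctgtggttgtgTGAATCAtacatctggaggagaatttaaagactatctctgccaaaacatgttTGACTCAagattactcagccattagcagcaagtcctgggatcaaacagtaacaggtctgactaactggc

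The internal Rcan1 promoter held 1 full CRE, 1 AP-1 motif and 2 NFAT cores, whereas the far promoter held none of the 3. Of the 32851 RefSeq promoters, 1.79% held the full CRE, 20.8% its core, 7.81% the AP-1 motif and 23.4% the NFAT core. The Camkk1 peak held a full CRE, as did 6 of 4971 peaks within 10% of its width (0.121%). The printed Rcan2 window, at an internal promoter, held 1 AP-1 motif. The Rcan2 windows near the gene start held 0 AP-1 motifs. Of these, chr17:43801102-43801401 held 1 NFAT core and chr17:43801601-43801900 held 1 CRE core. The Rcan2 peak held 2 AP-1 motifs, and 21.1% of 5039 peaks of like width held at least 1. Windows for 7 of the 10 genes were matched by symbol. A match is a description of the letters and not a bound site.

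Per length, the levels of the 10 genes in silenced neurons had their highest mean for Ppp3ca and their lowest for Camkk2. On the RPKM scale (reads per kb of merged exon, scaled to library depth; mean ± SD, 6 controls), the levels of Ppp3ca (37.1 ± 1.53), Camk2b (37.0 ± 2.54), Camk4 (33.7 ± 2.19) and Ppp3cb (30.3 ± 0.874) led. Neighbours within this group overlapped in their control values, while Ppp3cb did not overlap Rcan1. Rcan1 (21.0 ± 0.919), Camk2a (17.8 ± 0.743) and Camk1g (14.6 ± 1.24) came next, each without overlap with its neighbours. Camkk1 (9.46 ± 0.837), Rcan2 (8.28 ± 0.771) and Camkk2 (7.06 ± 0.256) were lowest, and each overlapped the next. Exon lengths were merged over all annotated transcripts, so a gene with long rarely used exons is placed too low.

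**Figure D1:**
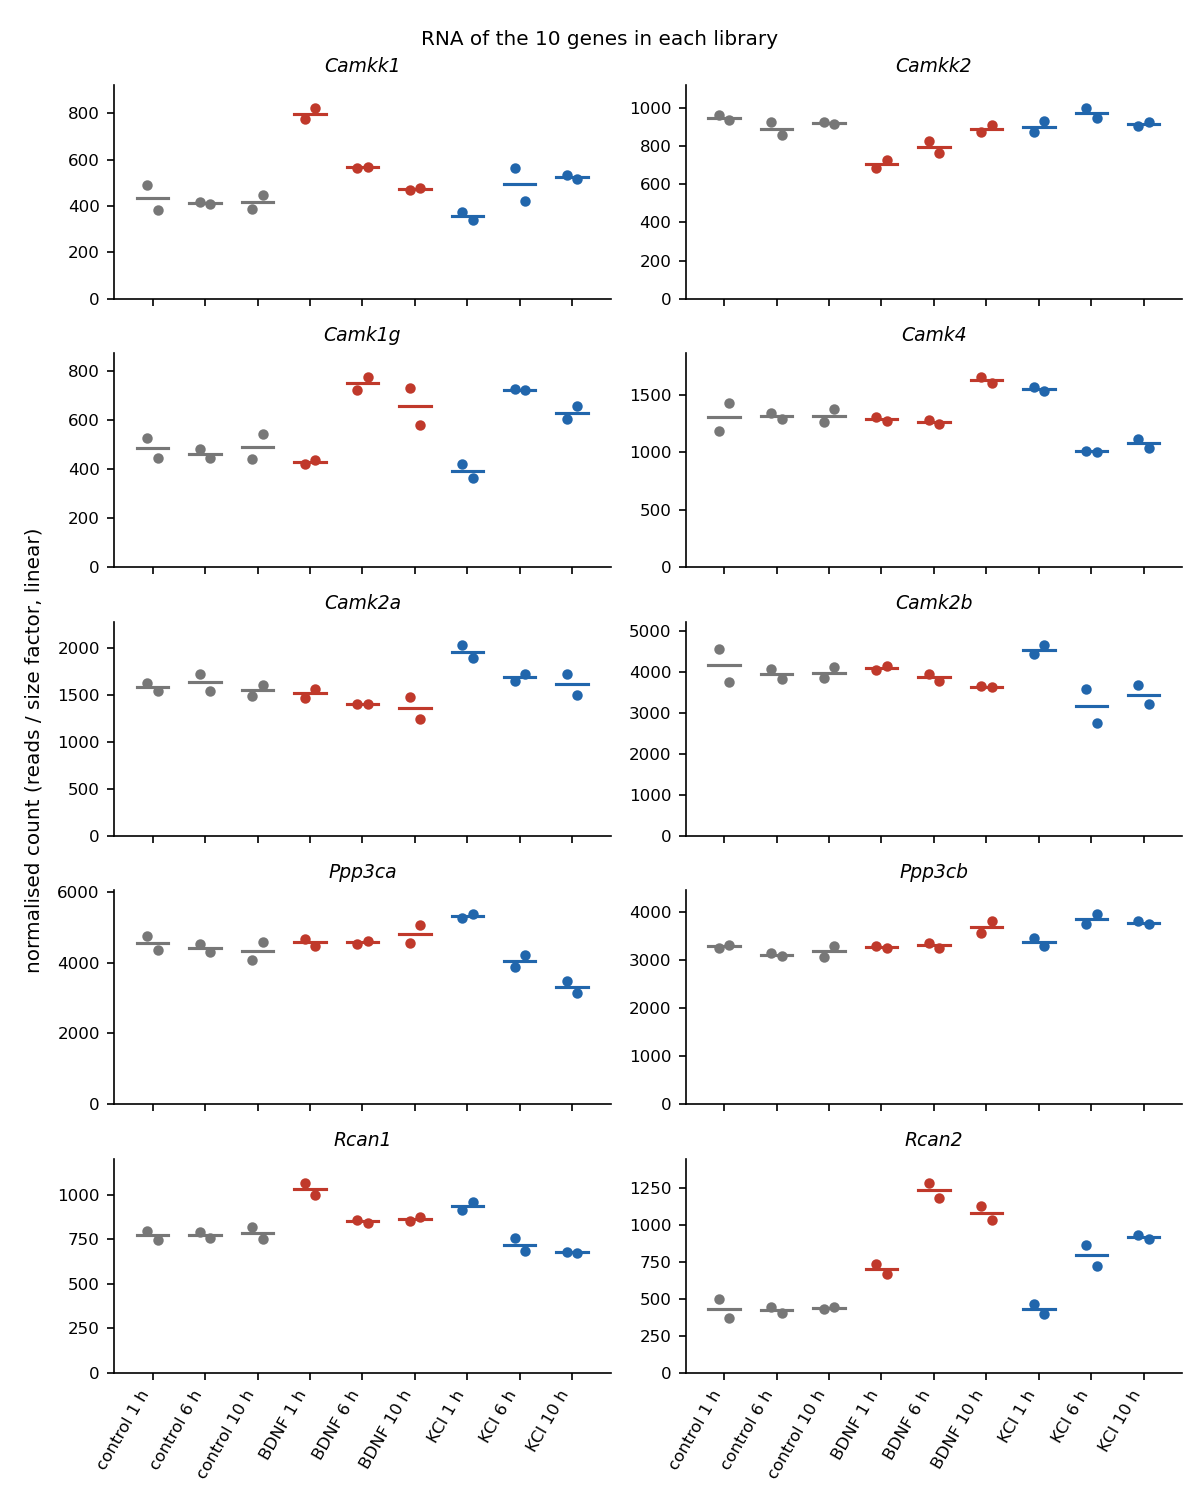
Normalized count (linear axis from 0) of each of the 10 genes in all 18 RNA libraries, with 9 groups along the horizontal axis, 1 point per library and a line at each group mean. Camkk1 stands highest after 1 h of BDNF, Rcan2 after 6 h of BDNF, and Ppp3ca lowest after 10 h of KCl.

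Both stimuli changed members of the set in both directions. With BDNF, 3 of the 10 genes rose and 1 fell at 1 h, where 21.3% of all genes tested were higher and 19.0% lower. At 6 h, 3 rose and 2 fell (22.1% and 21.1% of all genes), and at 10 h 5 rose and 1 fell (21.1% and 19.5%). With KCl, 5 rose and 2 fell at 1 h (26.5% and 28.2%), 4 rose and 3 fell at 6 h (33.4% and 33.1%), and 4 rose and 4 fell at 10 h (29.0% and 28.2%). The median log2 difference of the 10 genes lay between 0.01 and 0.16 in these 6 comparisons, beside -0.01 to 0.01 for all genes. A call here means an adjusted p below 0.1 in limma on log2(normalized count + 1), adjusted over all genes tested, and all 6 comparisons share the same controls. With 10 genes, shares this close to those of all genes are not a result about the set, and the results are those of single genes.

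**Figure D2:**
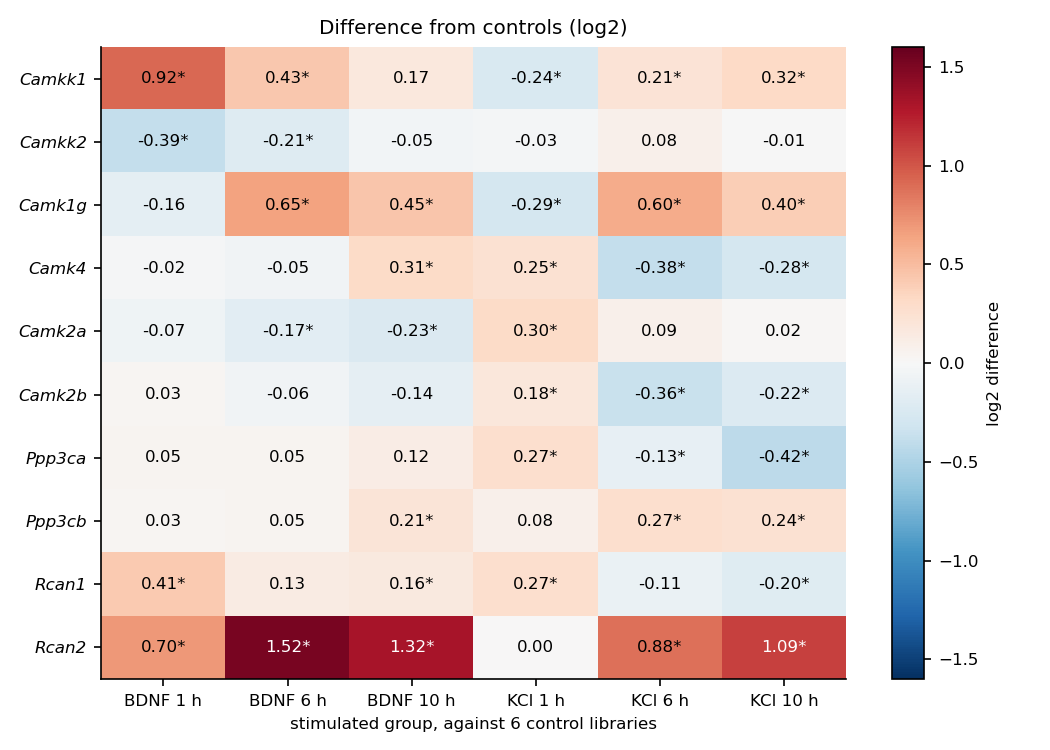
Log2 difference of each gene (rows) from the 6 controls in each stimulated group (columns), printed in the cell and shown as colour, with an asterisk where adjusted p was below 0.1 (limma). Rcan2 has the largest value of the 10 genes (1.52, BDNF 6 h) and Ppp3ca the lowest (-0.42, KCl 10 h).

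The upstream kinases moved apart. Camkk1 (ENSMUSG00000020785, chr11:73019008-73042073, plus strand) rose 1.90-fold within 1 h of BDNF, while Camkk2 (ENSMUSG00000029471, chr5:122731170-122779409, minus strand) fell. Camkk1 counted 383, 411 and 489.6 (lowest, median and highest) in the 6 controls and 776 and 821 after 1 h of BDNF. It stood at 565 and 569 after 6 h and 467 and 477 after 10 h. Both libraries at 1 and 6 h were above all controls, and those at 10 h were within the control range. The log2 difference was 0.92 ± 0.10 (SE; adjusted p = 1.82e-07) at 1 h, 0.43 ± 0.10 (adjusted p = 0.0017) at 6 h and 0.17 ± 0.10 (adjusted p = 0.209; 0.21 and passing without control 1 h A) at 10 h. From 1 to 6 h of BDNF it fell by 0.49 on the log2 scale (adjusted p = 0.00414).

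KCl gave Camkk1 the opposite start. Its counts were 373 and 339 after 1 h, then 564 and 421 after 6 h, then 535 and 514 after 10 h. Both 1 h libraries were below all controls and both 10 h libraries above them, with log2 differences of -0.24 ± 0.10 (adjusted p = 0.0486) and 0.32 ± 0.10 (adjusted p = 0.0105). The call at 6 h (0.21 ± 0.10, adjusted p = 0.0672) rested on library A, since without KCl 6 h A the difference was 0.00, and it was 0.42 without KCl 6 h B. It was also lost without control 1 h B or control 10 h A (both 0.19) and with same-time controls (0.25, adjusted p = 0.12). The rise from 1 to 6 h of KCl (0.45 ± 0.12, adjusted p = 0.00325) was 0.24 without KCl 6 h A (adjusted p = 0.104), and the 1 h call was lost without KCl 1 h B (-0.17, adjusted p = 0.318).

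Camkk2 counted 858, 929 and 963 in controls, and 684 and 727 after 1 h of BDNF, 831 and 763 after 6 h, and 874 and 909.7 after 10 h. Libraries at 1 and 6 h were below every control. The log2 difference was -0.39 ± 0.06 at 1 h (adjusted p = 5.48e-05) and -0.21 ± 0.06 at 6 h (adjusted p = 0.0126), the latter lost without BDNF 6 h B (-0.15, adjusted p = 0.227) or with same-time controls (-0.16, adjusted p = 0.149). KCl left its counts at 877 to 999.9, and the intervals of the 3 differences lay between -0.16 and 0.21, none of which passed the test.

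Of the kinases downstream, Camk1g (ENSMUSG00000016179, chr1:193346346-193370298, minus strand), which codes for the neuronal CaM kinase Iγ of dendrites and Golgi membranes, rose late with both stimuli. Its counts were 442, 463 and 544 in controls. BDNF gave 423 and 437 at 1 h, then 725 and 778 at 6 h, then 734 and 582 at 10 h. KCl gave 424 and 364 at 1 h, then 728 and 722 at 6 h, then 604 and 659 at 10 h. All 8 libraries at 6 and 10 h were above all controls and all 4 at 1 h below them. The log2 difference at 6 h was 0.65 ± 0.10 with BDNF (adjusted p = 1.72e-05) and 0.60 ± 0.10 with KCl (adjusted p = 1.53e-05; 0.59 and 0.60 without KCl 6 h A or B). At 10 h it was 0.45 ± 0.10 and 0.40 ± 0.10. At 1 h only KCl passed the test (-0.29 ± 0.10, adjusted p = 0.017), and not without KCl 1 h B (-0.18, adjusted p = 0.275). Between 1 and 6 h it rose by 0.80 ± 0.12 with BDNF (adjusted p = 2.35e-05) and by 0.88 ± 0.12 with KCl (adjusted p = 2.03e-06).

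Camk4 (ENSMUSG00000038128, chromosome 18), the nuclear CaM kinase that phosphorylates CREB, moved in opposite directions late. Controls counted 1183, 1314 and 1428. With BDNF the counts were 1303 and 1276 at 1 h, then 1276 and 1249.8 at 6 h, then 1656 and 1598 at 10 h. With KCl they were 1572 and 1537 at 1 h, then 1012 and 1004 at 6 h, then 1118 and 1038 at 10 h. The BDNF 10 h and KCl 1 h libraries lay above all controls, and the later KCl libraries below all of them. With BDNF the log2 difference was 0.31 ± 0.07 at 10 h (adjusted p = 0.001), and with KCl 0.25 ± 0.07, -0.38 ± 0.07 (adjusted p = 3.66e-05; -0.38 and -0.37 without KCl 6 h A or B) and -0.28 ± 0.07 at 1, 6 and 10 h. From 1 to 6 h of KCl it fell by 0.62 (adjusted p = 1.31e-06). From 6 to 10 h of BDNF it rose by 0.36 ± 0.08 (adjusted p = 0.0847), which did not pass when any of the 4 libraries of that comparison was left out (adjusted p = 0.409 to 0.953), nor with no filter (adjusted p = 0.146).

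Camk2a rose at 1 h of KCl, and Camk2b fell at the later KCl times, with calls that single libraries could end. Camk2a (ENSMUSG00000024617, chromosome 18), the α subunit, counted 1495, 1577 and 1731 in controls and 2032 and 1897 after 1 h of KCl, a log2 rise of 0.30 ± 0.07 (adjusted p = 0.00155). With BDNF it stood at 1473 and 1566, then 1411 and 1412, then 1481 and 1243. The 6 and 10 h libraries were below all controls (-0.17 ± 0.07, adjusted p = 0.0694, and -0.23 ± 0.07, adjusted p = 0.0194). The 6 h call was lost without control 6 h A, BDNF 6 h A or BDNF 6 h B (-0.15, -0.17 and -0.17), and the 10 h call without BDNF 10 h B (-0.10). Camk2b (ENSMUSG00000057897, chr11:5969644-6066362, minus strand), the actin-binding β subunit, counted 3751, 3967 and 4581 in controls. It was at 4445 and 4657 after 1 h of KCl, 3585 and 2752 after 6 h, and 3677 and 3235 after 10 h. Both late KCl groups lay below all controls (-0.36 ± 0.08, adjusted p = 0.000803, and -0.22 ± 0.08, adjusted p = 0.0293), but without KCl 6 h B the 6 h difference was -0.17 (adjusted p = 0.108) and without A it was -0.55. The 10 h call was lost without KCl 10 h B (-0.13). The 1 h rise of Camk2b with KCl (0.18 ± 0.08, adjusted p = 0.0861) was lost without either KCl 1 h library (0.21 and 0.14) and without control 1 h B, control 6 h A, control 6 h B or control 10 h A (0.16 to 0.18), with DESeq2 (adjusted p = 0.101), with no filter (adjusted p = 0.112) and with same-time controls (0.13, adjusted p = 0.365). With same-time controls the Camk2a calls at 6 and 10 h of BDNF (adjusted p = 0.109 and 0.166) and the Camk2b call at 10 h of KCl (adjusted p = 0.139) were also lost, and with no filter the Camk2a call at 6 h (adjusted p = 0.107). Within a library, the per-length ratio of Camk2a to Camk2b was 0.435 to 0.518 in controls, 0.563 and 0.768 after 6 h of KCl and 0.568 and 0.575 after 10 h, and 0.418 to 0.494 over the BDNF libraries.

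Calcineurin's catalytic subunits parted under KCl. Ppp3ca (ENSMUSG00000028161, chr3:136670124-136937727, plus strand) encodes the α and Ppp3cb (ENSMUSG00000021816, chr14:20499364-20546573, minus strand) the β isoform. Ppp3ca counted 4088, 4441 and 4744 in controls, 5273 and 5373 after 1 h of KCl, 3884 and 4207 after 6 h and 3471 and 3154 after 10 h. The 1 h libraries were above and the 10 h libraries below all controls. Its log2 difference was 0.27 ± 0.06 (adjusted p = 0.00139), then -0.13 ± 0.06 (adjusted p = 0.0771), then -0.42 ± 0.06 (adjusted p = 1.1e-05). The 6 h call was lost without KCl 6 h A, control 1 h A, control 6 h A or control 10 h B (-0.07, -0.11, -0.13 and -0.12), and was -0.19 without KCl 6 h B. It did not pass with no filter or with same-time controls (-0.12, adjusted p = 0.223). It fell by 0.40 from 1 to 6 h (adjusted p = 0.000182) and by a further 0.29 to 10 h (adjusted p = 0.015), the second step not passing without KCl 6 h B (-0.23) or KCl 10 h B (-0.22). BDNF left Ppp3ca at 4480.1 to 5077, and none of the 3 differences (0.05, 0.05 and 0.12) passed, although the value at 10 h did without control 1 h A or BDNF 10 h A (0.14 and 0.20).

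Ppp3cb went the other way at the late times. It counted 3062, 3196 and 3316 in controls, 3465 and 3296 after 1 h of KCl, 3756 and 3953 after 6 h and 3800.1 and 3749.8 after 10 h. Late KCl libraries were all above the controls (0.27 ± 0.05, adjusted p = 0.00018, and 0.24 ± 0.05, adjusted p = 0.000835; 0.31 and 0.24 at 6 h without KCl 6 h A or B). With BDNF it counted 3560.3 and 3805 at 10 h (0.21 ± 0.05, adjusted p = 0.00602), a call lost without BDNF 10 h B (0.16, adjusted p = 0.144). The Ppp3ca to Ppp3cb ratio per length was 1.16 to 1.29 in the controls, 0.913 and 0.939 after 6 h of KCl and 0.742 and 0.806 after 10 h, outside the control range in all 4 libraries, 1.34 and 1.44 after 1 h of KCl, above every control, and 1.13 to 1.25 over the BDNF libraries.

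**Figure D3:**
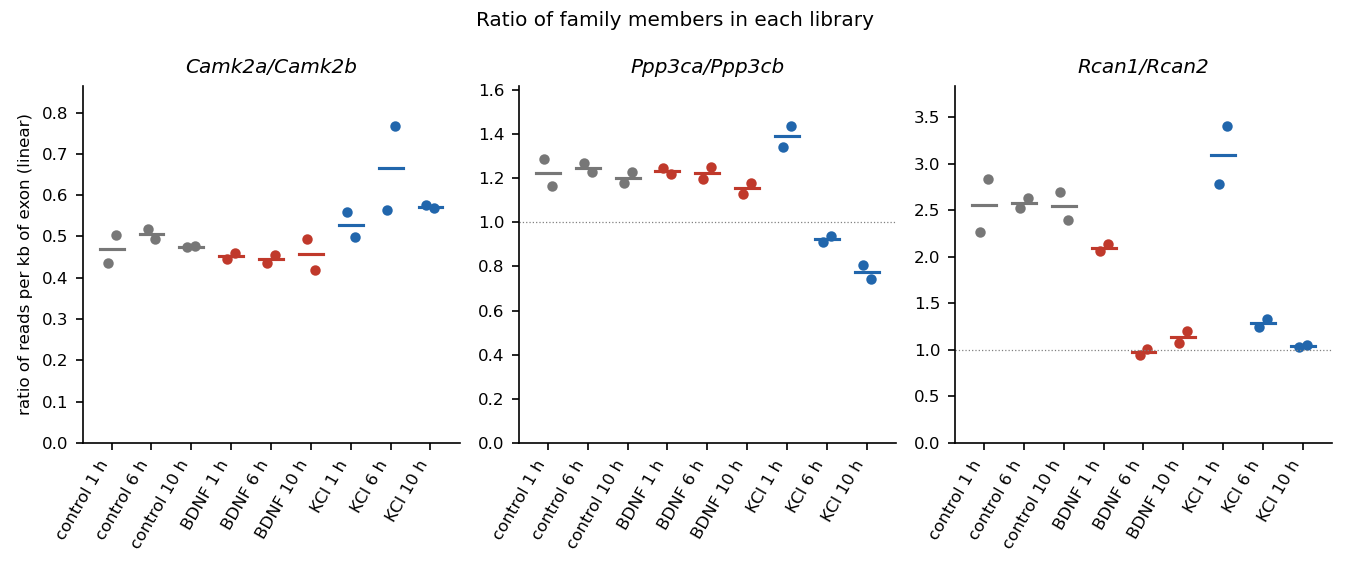
Ratio of reads per kb of exon (linear axis from 0; dotted line at 1) of Camk2a to Camk2b, Ppp3ca to Ppp3cb and Rcan1 to Rcan2 in each of the 18 RNA libraries, 1 point per library and a line at each group mean. Ppp3ca to Ppp3cb falls below 1 in the late KCl libraries, and Rcan1 to Rcan2 from 2.27 to 2.83 in controls to between 0.947 and 1.33 in all late stimulated libraries.

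The calcipressins answered on different schedules. Rcan1 (ENSMUSG00000022951, chr16:92391953-92470867, minus strand), whose short transcript starts at the internal promoter printed above, rose early with both stimuli. Controls counted 744, 774 and 816. BDNF gave 1067 and 1001 at 1 h, then 860.3 and 839.9 at 6 h, then 852 and 877 at 10 h, all above every control. KCl gave 914 and 961 at 1 h, then 758 and 682 at 6 h, then 679.6 and 673 at 10 h, the last below every control. The log2 difference at 1 h was 0.41 ± 0.06 with BDNF (adjusted p = 2.57e-05) and 0.27 ± 0.06 with KCl (adjusted p = 0.00122). At 6 h it was 0.13 ± 0.06 with BDNF and -0.11 ± 0.06 with KCl, neither passing unless control 10 h A (0.15) or KCl 6 h A (-0.19) was left out. At 10 h it was 0.16 ± 0.06 with BDNF (adjusted p = 0.0642; lost without either BDNF 10 h library, control 1 h B or control 10 h B, at 0.14 to 0.18, and with same-time controls or no filter, adjusted p = 0.248 and 0.104) and -0.20 ± 0.06 with KCl (adjusted p = 0.0136). From 1 to 6 h it fell by 0.28 with BDNF, a call lost without BDNF 1 h A (-0.24, adjusted p = 0.112), and by 0.38 with KCl (adjusted p = 0.000307). Reads were counted per gene, so the transcripts of the 2 promoters are not separated.

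Rcan2 (ENSMUSG00000039601, chr17:43801351-44039516, plus strand), the calcipressin abundant in brain, gave the largest rise of the 10 genes. Controls counted 372, 437 and 499. With BDNF the counts were 736 and 666 at 1 h, then 1287 and 1183 at 6 h, then 1126 and 1036 at 10 h. With KCl they were 466 and 399.9 at 1 h, then 866 and 726 at 6 h, then 933 and 906 at 10 h. All BDNF libraries and the late KCl libraries were above every control, and the KCl 1 h libraries were within the control range. The log2 difference was 0.70 ± 0.09 (adjusted p = 4.68e-06), 1.52 ± 0.09 (adjusted p = 6.11e-11) and 1.32 ± 0.09 (adjusted p = 8.77e-10) at 1, 6 and 10 h of BDNF. With KCl it was 0.00 ± 0.09 (95% interval -0.19 to 0.20), 0.88 ± 0.09 (adjusted p = 6.2e-08; 0.75 and 1.01 without KCl 6 h A or B) and 1.09 ± 0.09 (adjusted p = 5.41e-09). The Rcan1 to Rcan2 ratio, 2.78 and 3.41 after 1 h of KCl, went from 2.27 to 2.83 in controls to 0.947 and 1.01 after 6 h of BDNF.

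The stimuli differed directly in 6 of the 10 genes at 1 h, 8 at 6 h and 4 at 10 h, where 42.8%, 57.3% and 45.0% of all genes differed. Camkk1 was 1.16 ± 0.12 (log2) higher with BDNF at 1 h (adjusted p = 1.08e-07), and at 6 and 10 h its difference (0.22, 95% interval -0.03 to 0.47, and -0.15, -0.40 to 0.10) did not pass, except at 6 h without KCl 6 h A (0.43). Camk4 was 0.27 lower with BDNF at 1 h (log2 difference -0.27 ± 0.08) and 0.33 ± 0.08 and 0.59 ± 0.08 higher at 6 and 10 h (adjusted p = 5.22e-06 at 10 h). Ppp3ca followed the same order, -0.22 ± 0.08, 0.18 ± 0.08 and 0.54 ± 0.08 (adjusted p = 1.03e-05 at 10 h). Its 1 h call was lost without BDNF 1 h B or KCl 1 h B (-0.19 and -0.21), and its 6 h call without BDNF 6 h A, BDNF 6 h B or KCl 6 h A (0.19, 0.17 and 0.12). Rcan2 was 0.70 ± 0.12 and 0.64 ± 0.12 higher with BDNF at 1 and 6 h (adjusted p = 5.35e-05 and 8.81e-05; 0.76 and 0.51 at 6 h without KCl 6 h A or B), and 0.23 (-0.01 to 0.47) at 10 h, which did not pass. Rcan1 was higher with BDNF at 6 and 10 h (0.24 ± 0.08 and 0.35 ± 0.08), the 6 h call being lost without KCl 6 h B (0.17).

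Camk2a was lower with BDNF than with KCl at each time (-0.37 ± 0.09, -0.26 ± 0.09 and -0.25 ± 0.09), the 10 h call being lost without BDNF 10 h B (-0.12) or KCl 10 h A (-0.15). Camkk2 was lower at 1 and 6 h (-0.36 ± 0.08 and -0.29 ± 0.08). At 6 h Camk2b was higher with BDNF (0.30 ± 0.10, lost without KCl 6 h B at 0.11 or BDNF 6 h A at 0.27) and Ppp3cb lower (-0.22 ± 0.07). Without KCl 6 h A or B the 6 h differences were -0.29 or -0.23 for Camk2a, -0.25 or -0.33 for Camkk2, 0.33 or 0.32 for Camk4 and -0.26 or -0.19 for Ppp3cb, all passing. Camk1g differed at no time, with intervals of -0.11 to 0.38, -0.19 to 0.29 and -0.19 to 0.29.

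**Figure D4:**
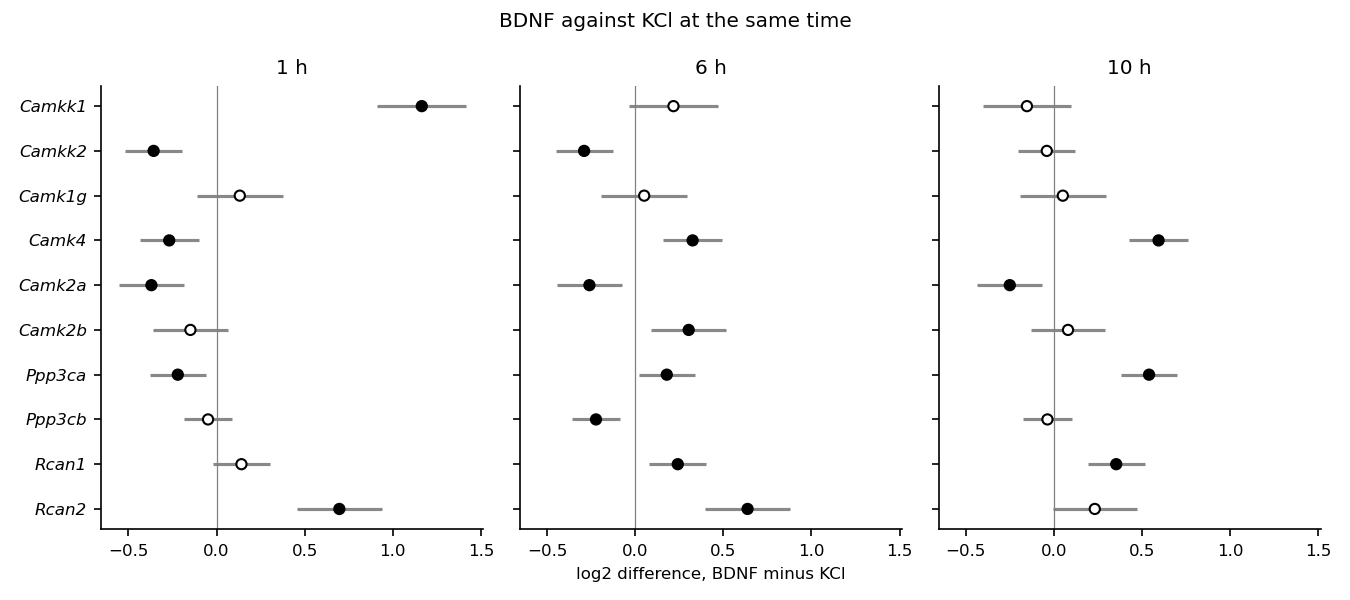
Log2 difference between BDNF and KCl (BDNF minus KCl, horizontal axis) for each gene at 1, 6 and 10 h, with 95% intervals from the limma fit and filled points where adjusted p was below 0.1. Camkk1 has the widest gap at 1 h (1.16) and Camk4 and Ppp3ca the widest at 10 h (0.59 and 0.54).

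Most of the change with time lay between 1 and 6 h. With BDNF, 4 of the 10 genes differed between 1 and 6 h (33.6% of all genes) and 1, Camk4, between 6 and 10 h (0.216% of all genes). With KCl, 9 differed between 1 and 6 h (59.6%) and 1, Ppp3ca, between 6 and 10 h (22.5%), a count that was 4 without KCl 6 h A, where Camk2b, Camkk1 and Rcan2 also passed (0.33, 0.32 and 0.34), and 0 without KCl 6 h B or KCl 10 h B. Without KCl 6 h A or B the change from 1 to 6 h of KCl was -0.73 or -0.34 for Camk2b, -0.63 or -0.62 for Camk4, -0.34 or -0.46 for Ppp3ca, -0.46 or -0.31 for Rcan1, 0.88 or 0.89 for Camk1g and 0.75 or 1.00 for Rcan2, all passing. The other KCl changes from 1 to 6 h were falls of 0.22 for Camk2a (adjusted p = 0.0462, lost without KCl 1 h A or KCl 6 h A at -0.17 and -0.18) and 0.53 for Camk2b (adjusted p = 0.000148), and rises of 0.88 ± 0.12 for Rcan2 and 0.19 ± 0.07 for Ppp3cb (lost without KCl 1 h B or KCl 6 h B, both at 0.15). With BDNF, Rcan2 rose by 0.82 ± 0.12 over those hours. No gene differed between the 6 or 10 h controls and the 1 h controls by limma (0% of all genes in both, none by edgeR or DESeq2 either), the 10 genes included. At an unadjusted p below 0.05 limma gave 164 and 181 genes, fewer than chance alone would give. The test was thus strict here, and the lack of calls does not show that the controls were alike.

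Over the means of the 9 groups, the genes most like Rcan2 among the 16209 tested were Ipo4, Ddx27 and Spred3 (Pearson r = 0.991, 0.988 and 0.986). Those most like Ppp3ca were Gm12696, Islr2 and Sirt3 (r = 0.979, 0.968 and 0.965). These r values rest on 9 means and are the highest among 16209 genes, so they are a description.

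Gains outnumbered losses among the peaks near the genes, as they did among all peaks. In all, 48 peaks lay within the 10 genes or up to 10 kb upstream, 28 of them intronic, 14 at a promoter, 5 upstream and 1 exonic, and 18 passed the test in at least 1 of the 6 comparisons with controls. Calls here are adjusted p below 0.1 in edgeR's quasi-likelihood test. After BDNF 12, 8 and 7 passed at 1, 6 and 10 h (17.3%, 10.6% and 9.36% of the 56383 peaks tested), of which 11, 7 and 7 were gained and 1, 1 and 0 lost. Of all peaks, 12.5%, 8.88% and 7.46% were gained and 4.78%, 1.75% and 1.90% lost. After KCl 5, 5 and 7 passed (8.34%, 7.49% and 7.87% of all peaks), of which 4, 4 and 7 were gained and 1, 1 and 0 lost, where 5.29%, 5.44% and 5.91% of all peaks were gained and 3.05%, 2.06% and 1.96% lost. Their median log2 difference was 0.17, -0.04 and 0.02 at the 3 BDNF times, against -0.05, -0.04 and -0.04 for all peaks, and 0.12, 0.13 and 0.10 at the KCl times, against 0.01, -0.00 and -0.01. With 48 peaks of 10 loci, these counts are read as results of single peaks. Between BDNF and KCl, 12, 1 and 0 of the 48 differed at 1, 6 and 10 h (14.9%, 3.63% and 1.99% of all peaks). Peaks of 1 gene share a locus and are not replicates. Camk2a, Camkk2 and Ppp3cb had no peak that passed.

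The intronic Ppp3ca peak with the lowest adjusted p had the largest difference of the named peaks. The lowest count of the ATAC data was 1, and several controls of this peak and of the Rcan2 and Camk1g intronic peaks lay near it. Their controls were all below 10 scaled counts, so these peaks reached the mean of at least 10 through stimulated libraries. The sizes of their log2 differences, and a ranking by size, are therefore uncertain. Its scaled counts (counts divided by the LOESS scaling) were 1.00, 1.97 and 7.05 (lowest, median, highest) in controls and 40.3 and 47.9 after 1 h of BDNF. They were 24.6 and 15.5 at 6 h and 9.35 and 17.6 at 10 h of BDNF, and 12.1 and 4.57, 25.3 and 17.6, and 24.1 and 30.3 after 1, 6 and 10 h of KCl. All but 1 of the stimulated libraries, KCl 1 h B, were above all controls. The log2 difference was 3.90 ± 0.45, 2.73 and 2.23 with BDNF (adjusted p = 1.24e-12 at 1 h) and 1.43, 2.93 and 3.20 with KCl, that at 1 h of KCl not passing (adjusted p = 0.13). It was 1.67 at 10 h without BDNF 10 h B and 2.57 at 6 h without KCl 6 h A, neither passing, whereas the 1 h KCl value passed without control 1 h B (2.06) or KCl 1 h B (2.05). For Ppp3ca RNA no BDNF comparison passed, and its counts were lowest after 10 h of KCl.

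The Camkk1 peak with the full CRE, 4.35 kb into the gene, gained in the group in which Camkk1 RNA was highest. Scaled counts were 1.46, 7.43 and 11.2 in controls, and 51.9 and 57.0, 38.5 and 24.1, and 25.6 and 33.3 after 1, 6 and 10 h of BDNF. KCl gave 12.9 and 12.3 at 1 h, then 30.4 and 10.2 at 6 h, then 18.4 and 15.4 at 10 h, of which 5 of 6 were above all controls. With a control median below 10, this peak also reached the mean of at least 10 through stimulated libraries. The sizes of its log2 differences are therefore uncertain too. The log2 difference was 2.98 ± 0.37 (adjusted p = 3.49e-11), 2.16 and 2.10 at the 3 BDNF times and 0.88, 1.75 and 1.30 with KCl, the 1 h KCl value not passing (adjusted p = 0.26). The KCl calls were lost without KCl 6 h A (0.57) and, at 10 h, without KCl 10 h A, KCl 10 h B, control 6 h B or control 10 h A (1.17, 1.43, 1.12 and 1.15), or with same-time controls (1.26). At 1 h the peak was 2.10 higher with BDNF than with KCl (adjusted p = 0.000453). The Camkk1 promoter peak passed in no comparison (-0.06 to 0.21).

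Rcan2 had 6 peaks that passed. The one printed above, 234 kb into the gene, had scaled counts of 1.02, 1.53 and 7.89 in controls, 26.5 and 26.0 after 1 h of BDNF, and 5.97 and 0.597 after 1 h of KCl, when Rcan2 RNA was not raised. They were 9.09 and 18.3 at 6 h and 5.56 and 19.7 at 10 h of BDNF. At 6 h of KCl they were 4.99 and 13.3, and at 10 h 15.3 and 11.3. BDNF 10 h A (5.56) and KCl 6 h A (4.99) lay within the control range. Rcan2 RNA was highest at 6 h of BDNF and the peak at 1 h of BDNF. The log2 difference of the peak was 3.25 ± 0.53 at 1 h of BDNF (adjusted p = 3.42e-07), 2.36 at 6 h and 2.25 at 10 h, and 0.14, 1.44 and 2.28 with KCl, passing at 10 h (adjusted p = 0.0095). It was 3.11 higher with BDNF than with KCl at 1 h (adjusted p = 0.000573). The calls at 6 and 10 h of BDNF were lost without the B library of each (1.48 and 0.91), the first also with same-time controls (1.41), and that at 10 h of KCl without KCl 10 h A (1.99), while the 6 h KCl value passed without control 6 h A (2.27). A neighbour at chr17:44029685-44029951, chosen after its values were seen, passed in all 6 comparisons (2.04, 2.02 and 2.14 with BDNF, 1.40, 1.49 and 1.81 with KCl). The promoter peak around the printed window, chr17:43952541-43953505, also chosen after its values were seen, gained 0.90 ± 0.21 at 1 h of BDNF (adjusted p = 0.000735) and 0.06 ± 0.23 at 1 h of KCl, which did not pass.

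**Figure D5:**
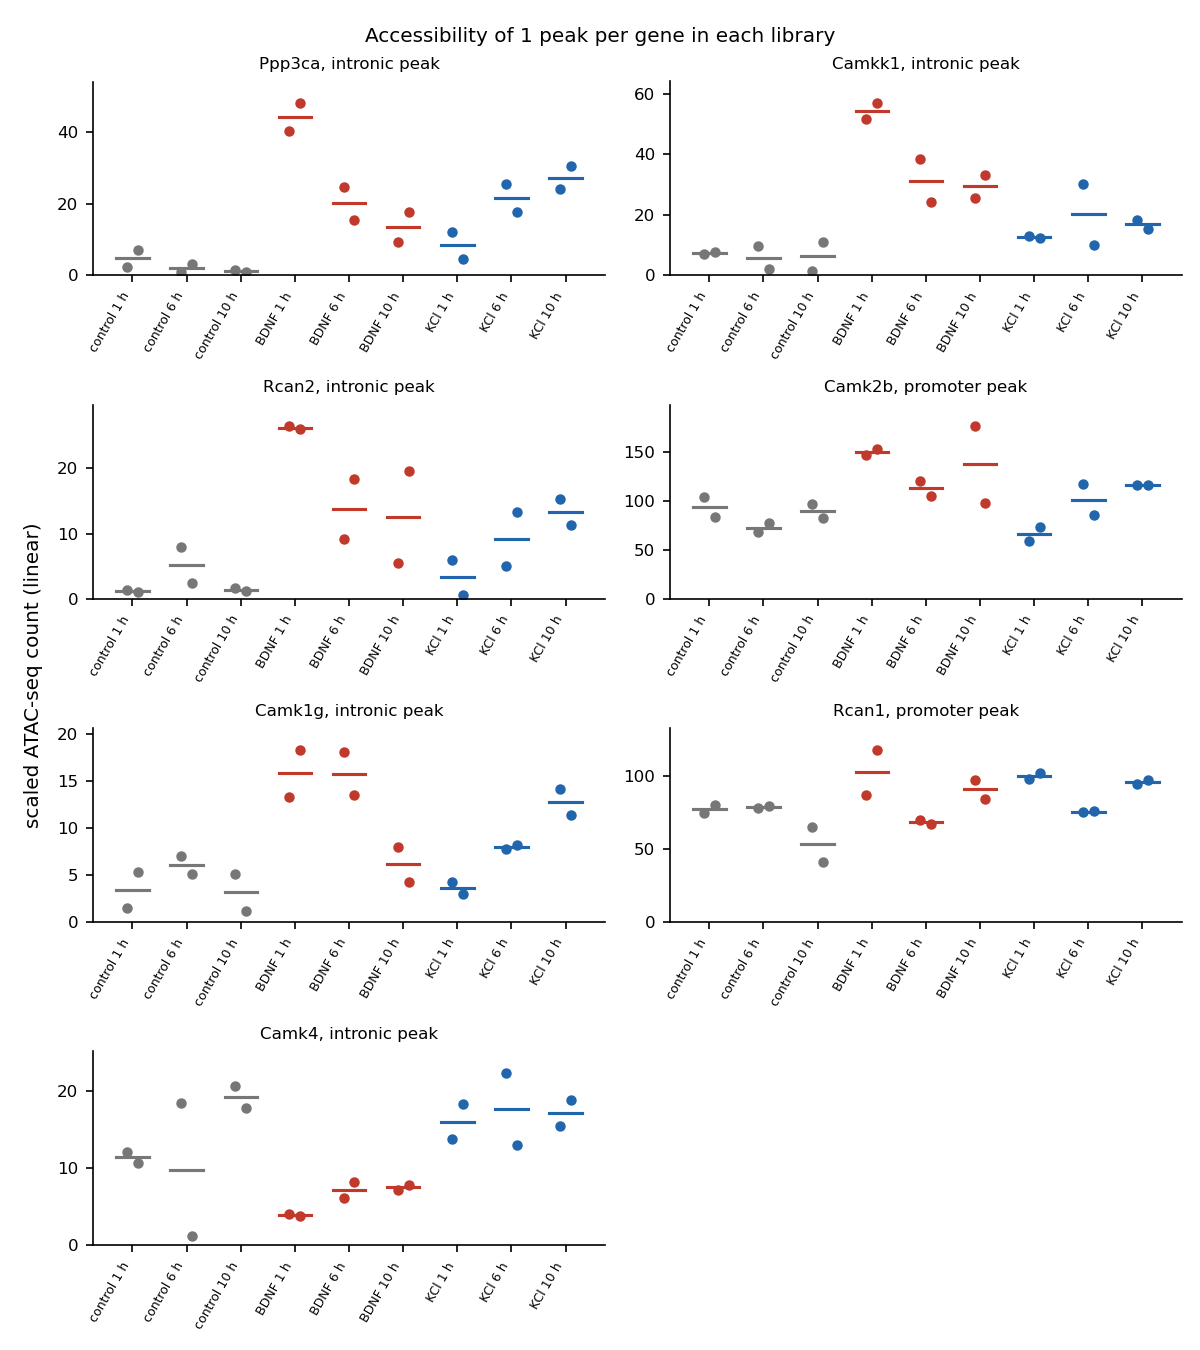
Scaled ATAC-seq count (linear axis from 0) in each of the 18 ATAC libraries of the peak with the lowest adjusted p of 7 genes, 1 point per library and a line at each group mean. The Ppp3ca, Camkk1 and Rcan2 intronic peaks are highest after 1 h of BDNF, and the Camk4 peak is the 1 that is lower there.

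The internal Rcan1 promoter peak, chr16:92399833-92400535, rose modestly with both stimuli at 1 h. Controls were at 41.5, 76.4 and 80.2, and the stimulated libraries at 87.5 and 118 (BDNF) and 97.9 and 103 (KCl), above all controls. Log2 differences were 0.56 ± 0.19 (adjusted p = 0.0305) and 0.52 ± 0.19 (adjusted p = 0.0875). Both calls were lost without control 10 h B (0.45 and 0.40), that of BDNF also without BDNF 1 h B (0.32), and that of KCl without either KCl 1 h library (0.55 and 0.48) or control 10 h A (0.50). With controls of the same time neither passed (0.42 and 0.37, adjusted p = 0.3 and 0.445), nor did the KCl value by limma (0.55, adjusted p = 0.157). The far promoter peak, chr16:92465824-92466613, differed by 0.15 and -0.01, which did not pass. At the internal peak, the 10 h libraries also exceeded every control: BDNF A 97.5, BDNF B 84.5, KCl A 94.4, KCl B 97.2. The 6 h libraries (67.1 to 76.0) stayed within the control range. The 10 h differences did not pass with the pooled controls. They passed with same-time controls, which include the lowest control, 10 h B: BDNF 0.79 (adjusted p = 0.0833), KCl 0.88 (adjusted p = 0.0465). Rcan1 RNA was below every control after 10 h of KCl.

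Among the other named peaks, that of Camk2b at chr11:6000290-6000914, at an internal transcript start, went from 68.0 to 104 in controls to 147 and 153 after 1 h of BDNF (0.82 ± 0.17, adjusted p = 5.11e-05) and to 59.5 and 73.3 after 1 h of KCl (-0.34, not passing). Its call at 10 h of BDNF (0.66) was lost without BDNF 10 h A (0.21) or with same-time controls (0.59). That of Camk1g at chr1:193351677-193351866 went from 1.19 to 7.03 in controls to 13.3 and 18.4 after 1 h of BDNF (1.88 ± 0.51, adjusted p = 0.00417; 1.06 and not passing without BDNF 1 h B). It also passed at 6 h of BDNF (1.85) and 10 h of KCl (1.56), and each of these was lost without either library of its group, the latter also without control 1 h A or control 10 h B (1.50 and 1.46), and both with same-time controls (1.35 and 2.12). An intronic Camk4 peak 232 kb into the gene fell at 1 h of BDNF, to 4.08 and 3.81 from 1.17 to 20.7 in controls (-1.73 ± 0.59, adjusted p = 0.0319), with the BDNF libraries inside the control range, and the call was lost without either BDNF 1 h library (-1.83 and -1.73), with TMM (-1.38, adjusted p = 0.115), limma (-1.25, adjusted p = 0.18) or same-time controls (-1.50, adjusted p = 0.189).

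The wider calmodulin pathway was read from 31 further genes. After BDNF, 9, 9 and 10 of the 31 rose and 4, 8 and 8 fell at 1, 6 and 10 h, and after KCl 18, 17 and 13 rose and 3, 8 and 5 fell. Over all genes tested, 21.3%, 22.1% and 21.1% were higher and 19.0%, 21.1% and 19.5% lower with BDNF at those times, and 26.5%, 33.4% and 29.0% higher and 28.2%, 33.1% and 28.2% lower with KCl. Their median log2 difference was 0.02, 0.05 and 0.07 (BDNF) and 0.23, 0.27 and 0.10 (KCl), beside the all-gene medians of -0.01 to 0.01. Of the 6 genes for calmodulin and its buffers, 4, 2 and 3 rose with BDNF and 6, 5 and 3 with KCl, and none fell. Of the 4 NFAT factors, none passed at 1 h of BDNF, 3 fell at 6 and at 10 h of BDNF, 2 rose at 1 and at 6 h of KCl, and none passed at 10 h of KCl. Both CaMKII inhibitors rose at 1 h with each stimulus, and at 6 and 10 h of KCl 1 rose and 1 fell. Sets of 2 to 6 genes are too small to set apart from the shares of all genes given above, and these counts describe single genes.

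Pde1a, a calmodulin-activated phosphodiesterase, made the largest change of the list. It counted 343 to 396 in controls, 1472 and 1539 after 6 h of BDNF and 1747 and 1807 after 10 h, but 380.5 and 388 and 358 and 402 after the same times in KCl. The log2 rise with BDNF was 2.00 ± 0.07 and 2.24 ± 0.07 (adjusted p = 3.99e-15 and 1.1e-15). Nfatc2, an NFAT factor, went from 25.9 to 44.6 in controls to 104 and 169 after 1 h of KCl (1.87 ± 0.26, adjusted p = 4.11e-06) and to 10.2 and 21.2 after 10 h of BDNF (-1.21 ± 0.26, adjusted p = 0.00126; -0.72 and not passing without BDNF 10 h A).

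Camk1d, another CaM kinase I, was raised at 6 h of BDNF, from 719.8 to 888 in controls to 1649.6 and 1737 (1.05 ± 0.08, adjusted p = 8.79e-10). Ppp3cc, the third catalytic subunit of calcineurin, fell to 60.2 and 64.9 after 6 h of KCl from 112 to 158 (-1.07 ± 0.15, adjusted p = 1.84e-06; -1.12 and -1.01 without KCl 6 h A or B). Pde1c and the calcium-stimulated adenylyl cyclase Adcy8 rose at 10 h of KCl (1.03 ± 0.09 and 1.07 ± 0.19, adjusted p = 1.31e-08 and 0.000114). Eef2k, the calmodulin-dependent kinase that slows translation elongation, chosen after its values were seen, counted 805 to 873 in controls and 446 to 698 in all stimulated libraries, and it fell in all 6 comparisons (-0.69 to -0.32).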

How the data were processed

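RNA-seq (oligo-dT) and ATAC-seq were made from 18 samples each. For RNA, the authors trimmed reads with Trimmomatic, mapped them to mm10 with TopHat2 and deposited a signal, the reads of each gene over the size factor that DESeq2 gave the library. Whether counting used strand is not given in the sources used here. All values were whole reads within 0.01 after undoing the scaling. For ATAC, the authors aligned with Bowtie2, used MACS2 on single samples to find peaks and deposited counts per peak from DiffBind. That table is named as normalised but holds whole numbers with unequal totals, so it was treated as raw. The authors' own tables of fold changes and p-values were not used beyond pairing 26203 gene IDs with symbols.

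RNA was tested with limma 3.58.1 (trend, robust; R 4.3.3) on log2(value + 1) for genes with a mean of at least 10, so fold changes of low genes are understated. Peaks with a mean of at least 10 were tested with edgeR 4.0.16 (quasi-likelihood, LOESS offsets, span 0.3). Both fits had 7 levels, the controls of the 3 times pooled, and a model with 9 levels compared controls over time. Calls were at a Benjamini-Hochberg adjusted p below 0.1, over all features tested. Both scripts were tested on simulated data. All columns differed from each other. Controls were pooled over time as in the study's methods.

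Per-length levels used merged exon lengths of the annotation. Camk4 shares 72 exonic bases (2.21%) with 2310026I22Rik on the other strand, which had a mean of 1.06. A peak belonged to a gene within its body or 10000 bases upstream, and a promoter ran from 1000 bases before to 100 after any annotated start. All 10 genes are named. List genes are named at a called log2 difference of at least 1 in size, 3 like genes for the members with the largest rise and fall, and the lowest adjusted p per gene among peaks. The genes and lists were chosen with earlier results of these data known. Alternatives were edgeR on recovered reads, TMM, DESeq2 1.42.0, a pseudocount of 10, no filter, same-time controls, adjusted p below 0.01, a replicate block and leaving out each library. The sequence of 1 named peak is not reported here.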

Additional observations from a re-analysis of the deposited data

Results flagged for a closer look

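Of the named peaks, 2 had a control library far from the other 5. The Ppp3ca intronic peak was at 7.05 scaled counts in control 1 h B, and the Rcan2 intronic peak at 7.89 in control 6 h A. Of 17 groups examined, chance gives about 1 in 20. That rate need not hold for these peaks, where most other controls lay near the lowest count of 1.

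Effects against the same controls differed between times by the direct limma test of the 2 times, in log2. Between 1 and 6 h of KCl the differences were -0.22 for Camk2a, -0.53 for Camk2b, -0.62 for Camk4, 0.45 for Camkk1, 0.88 for Camk1g, -0.40 for Ppp3ca, 0.19 for Ppp3cb, -0.38 for Rcan1 and 0.88 for Rcan2. Between 1 and 6 h of BDNF they were -0.49 for Camkk1, 0.80 for Camk1g, -0.28 for Rcan1 and 0.82 for Rcan2. Between 6 and 10 h they were 0.36 for Camk4 with BDNF and -0.29 for Ppp3ca with KCl. Whether these time differences themselves differ between BDNF and KCl was not tested.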

How the results depend on the processing

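No value that passed in either fit changed sign under the alternatives tried. Of 2624 alternatives of 200 single values, 71 had another sign, passing in neither. At an adjusted p below 0.01, the counts of the 10 genes called went from 5 to 3 (BDNF 6 h), 7 to 4 (KCl 1 h), 8 to 5 (KCl 10 h), 8 to 4 (BDNF against KCl, 6 h), and 1 to 0 for both 10 h against 6 h comparisons, while the list at 1 h of BDNF went from 13 to 7. The counts of peaks called went to 5 (BDNF 6 h), 3 (BDNF 10 h), 0 (KCl 1 h), 2 (KCl 6 h) and 3 (KCl 10 h). With controls of the same time the genes at 6 h of BDNF went to 3 and the peaks at 1 and 6 h of KCl to 2 and 3. With limma the peaks at 1 h of KCl went to 1, and with no filter the BDNF 10 h against 6 h count to 0. The cause was not tested, beyond the stricter threshold itself.

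Leaving out each library in turn gave 3 to 6 genes at 6 h of BDNF (3 without BDNF 6 h B), 3 to 8 at 10 h of BDNF (3 without BDNF 10 h B), 4 to 7 at 1 h of KCl (4 without KCl 1 h B), 0 to 0 for BDNF 10 h against 6 h and 0 to 4 for KCl 10 h against 6 h. For peaks it gave 7 to 12, 3 to 8 and 4 to 7 after 1, 6 and 10 h of BDNF and 1 to 7, 1 to 6 and 3 to 8 after KCl, the lowest counts coming without a library of the stimulated group. A lone library left in a group is assumed to vary like the other groups. Of 70 calls among 150 values of the 10 genes, 23 were lost without 1 library.

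The labels do not tie the letters A and B to single samples, so whether samples were paired across groups could not be told. Of 36 pairs of groups, the A minus B differences correlated over 0.1 in 13 (-0.31 to 0.42 over all pairs). With the letter as a replicate block, Rcan2 between BDNF and KCl at 10 h passed (0.23, adjusted p = 0.0518 by limma), so that count was 5 and not 4, and no other call of the 10 genes changed.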
